A study of Mus musculus with 12 samples.

Results

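The genes of the cytosolic ribosomal proteins were examined in the left ventricle of mice with and without heart failure with preserved ejection fraction (HFpEF). They were chosen by symbol, as the genes named Rpl or Rps followed by a number (with the endings a, l, x or 1), plus Rplp0, Rplp1, Rplp2 and Rpsa, which gave 86 of the 29564 genes listed. All mice were wild-type C57BL6, and the study's methods describe males. From each mouse 1 library of polyadenylated RNA was sequenced. Control-Veh mice were non-failing and received vehicle. HFpEF-Veh mice carried a model of HFpEF made with a high-fat diet (HFD) and L-NAME, an inhibitor of nitric oxide synthase, and received vehicle. HFpEF-TYA-018 mice carried the same model and received 15 mg/kg of TYA-018 by mouth, a compound that inhibits HDAC6, a deacetylase of the cytoplasm. Each group held 4 libraries, numbered within it and marked C for Control-Veh, V for HFpEF-Veh and T for HFpEF-TYA-018. The model joins diet and drug in every diseased mouse, so the effects of each cannot be told apart, and the title speaks of a single dose where the treatment protocol in the labels speaks of daily doses. The paper describes sequencing of hearts taken hours after a single dose of 15 mg/kg, before heart function had improved. Its long-term sequencing had larger groups and included mice given empagliflozin, a group that is absent here. The labels gave no age, cage or batch.

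A ribosome is built of a small (40S) and a large (60S) subunit, each a core of ribosomal RNA with a fixed set of proteins that are mostly present once per particle. The mRNAs of these proteins are among the most abundant of a cell, and they start with a run of pyrimidines, the 5′ terminal oligopyrimidine (TOP) tract, through which the kinase mTOR sets their translation. Heart muscle is known for one exchange within the set, since striated muscle makes RPL3L, a paralog of the 60S protein RPL3. The mRNAs are short and have many processed copies in the genome, so reads can be shared between a gene and its copies.

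The start sites are shown for members that passed the test in any comparison and had a start site in the RefSeq promoter table (GRCm38.p6). They are shown because the TOP tract begins at the start of the mRNA. Each sequence holds 15 bases before and 15 from the annotated start, on the strand of the gene. The longest run of C or T is in capitals, on whichever side of the start it lies.
Rps26 (chr10:128626492-128626521, minus strand): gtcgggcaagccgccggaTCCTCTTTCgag
Rps25 (chr9:44407699-44407728, plus strand): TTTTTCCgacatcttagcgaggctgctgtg
Rps7 (chr12:28635939-28635968, minus strand): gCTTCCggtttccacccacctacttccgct
Rpl35 (chr2:39005117-39005146, minus strand): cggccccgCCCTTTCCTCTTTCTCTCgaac
Rpl22l1 (chr3:28805493-28805522, plus strand): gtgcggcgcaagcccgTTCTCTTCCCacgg
Rpl5 (chr5:107900513-107900542, plus strand): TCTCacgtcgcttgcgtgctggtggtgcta
Rpl3l (chr17:24727811-24727840, plus strand): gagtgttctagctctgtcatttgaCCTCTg
The capitals of Rpl35 ran over 18 bases, those of Rpl22l1 over 10, Rps26 over 9 and Rps25 over 7, while the longest runs of Rps7 and Rpl3l were 5 bases and that of Rpl5 was 4. The capitals of Rps25, Rps7 and Rpl5 lie wholly before the annotated start, so they are not TOP tracts of mRNAs that begin there. A run of at least 6 C or T on the gene's strand was present at 39 of 76 start sites (51.3%) of the 64 members that matched the table, and at 29.2% of all 32851 start sites in it. Runs before the start were counted too, so these are not shares of TOP tracts. Rps14 and Rpl3 are named without a sequence.

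The libraries held 61.2 to 83.9 M estimated counts. The 6 ventricular markers (Myl2, Myh6, Tnnt2, Actc1, Myl3 and Tnni3) summed to 25309 to 36294 CPM (counts scaled to library size, after TMM) in Control-Veh, 23607 to 25108 for HFpEF-Veh and 26657 to 29573 with TYA-018, so that every HFpEF-Veh library lay lowest. Relative to Control-Veh, edgeR called 5 of the 6 lower in HFpEF-Veh and 1 (Actc1) higher. The atrial markers (Myl7, Sln, Nppa and Myl4) summed to 61.8 to 244 CPM. HFpEF-Veh libraries carried more mitochondrially encoded RNA (45.1 ± 2.06% of counts against 38.8 ± 1.58% in the controls and 38.9 ± 2.65% in mice given TYA-018, SD, n = 4). Their 5 red cell markers summed to 4785 to 14139 CPM, against at most 2309 in Control-Veh and 3572 in HFpEF-TYA-018. Their endothelial markers Pecam1 and Cdh5 summed to 500 to 544 CPM against 341 to 418 and 321 to 455, and their 3 fibroblast markers to 475 to 671 CPM against 341 to 498 and 298 to 460. The part of these differences in the ribosomal protein values was not tested. In bulk tissue, fewer cells of a type and less RNA per cell cannot be told apart.

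Among the 86 genes, levels per length spanned more than the shared role of the proteins in 1 particle. Mean TPM (transcript abundance scaled to length and library, deposited) over the 12 libraries was over 100 for 48 members, between 10 and 100 for 27 and 10 or less for 11. Rps29 led with 550 TPM (349 to 968 over libraries), ahead of Rpl28 (406 TPM) and Rps15 (373 TPM), and the ranges of these neighbours overlapped. At the other end, Rps7 had a mean of 2.86 TPM, Rpsa 0.394 and Rpl8 0.370, although each encodes a core protein of the cytosolic ribosome. Rps12, Rps12l1 and Rpl10l were listed at 0 in all 12 libraries and Rpl39l reached at most 16 counts in a library, which left 82 members for testing.

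**Figure D1:**
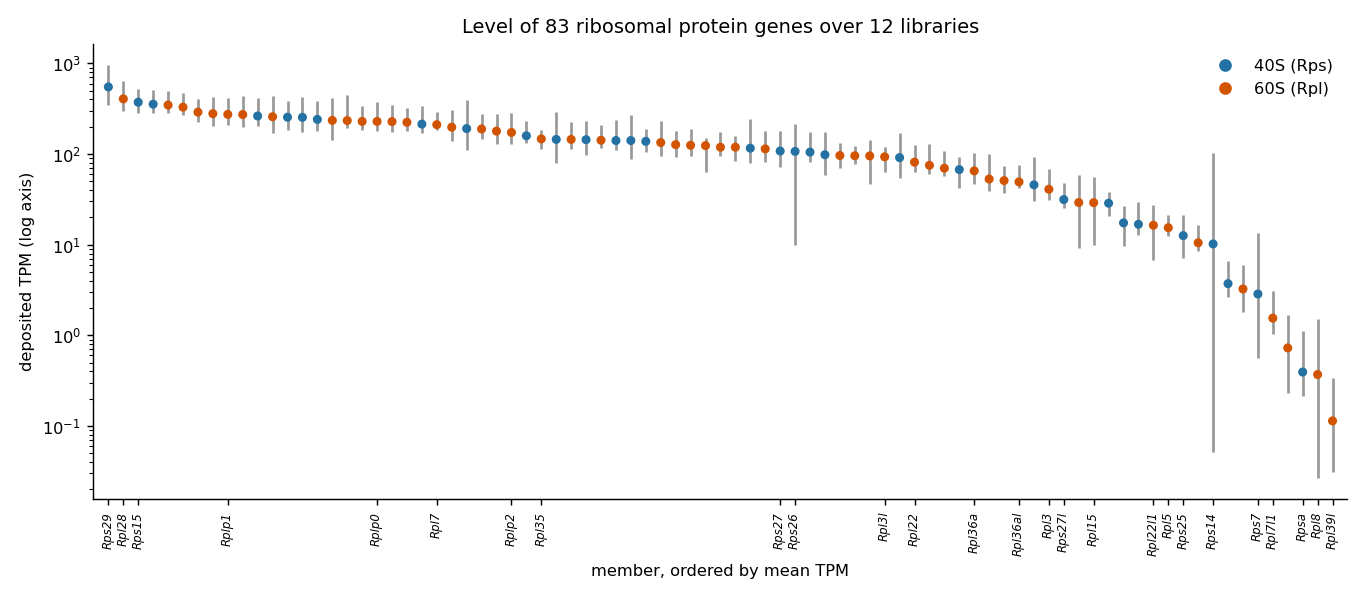
Deposited TPM on a log axis for the 83 members above 0, ordered by mean; points are means over 12 libraries and lines run from the lowest to the highest library, and a selection of members is labelled. Most members lie between 10 and 550 TPM, while Rps14, Rps26 and Rps7 have long lines and Rpsa, Rpl8 and Rpl39l lie below 1 TPM.

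Genomic copies held part of the estimated counts of several gene families. Whether those counts are reads of the member or of the copy itself was not tested. A search of the annotated transcripts found 383 listed genes that matched the coding sequence of a member over at least 80% of its length at 95% identity or more, for 71 members. The member itself held over 99% of its family's counts in 59 cases, members without a copy included, and under 50% in 6 cases. Among the latter, Rps7 held 6.63% of the counts of its family, Rpl5 20.6%, Rpl37 26.2%, Rps6 34.9% and Rpl15 47.4%. Rps12 was the extreme, with 0 counts of its own against a mean of 51 in its copies. Values of these members depend on how reads were divided between near-identical sequences.

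To learn whether the ribosomal protein genes moved as a family in HFpEF, HFpEF-Veh was compared with Control-Veh. Of the 82 tested members, 1 rose (Rpl3) and 1 fell (Rpl3l) at an adjusted p under 0.05 (edgeR quasi-likelihood test, Benjamini-Hochberg over 14333 genes). This was 1.22% of members in each direction, where 10.9% of all tested genes were called higher and 10.3% lower. The log2 fold change of counts was negative for 71 members and positive for 11, with a median of -0.13 against -0.01 over all genes, and a median standard error of 0.12. The median stayed below 0 under every scaling tried. Groups did not overlap for 2 members (Rpl3 and Rpl3l), or 2.44%, against 23.6% of all genes. The count rested on single libraries: it was 12 without C1 (Rpl3 higher, Rpl3l and 10 others lower), 4 without V2 and 1 without C3, C4 or V3. Without C1 the members' share was 14.6%, against 27.5% of all genes in that fit, and without V2 it was 4.88% against 16.4%. Without C3, C4 or V3 the share was 1.22%, against 13.7 to 15.1% of all genes.

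When HFpEF mice received TYA-018, 4 members rose (Rps14, Rps7, Rpl22l1 and Rps25) and 3 fell (Rps26, Rpl35 and Rpl5) relative to HFpEF-Veh. These were 4.88% and 3.66% of members, where 8.93% of all genes were called higher and 10.4% lower. The median log2 fold change of counts was 0.09 against 0.00 over all genes, and it turned to -0.05 when the effective lengths entered as an offset. Groups did not overlap for 9 members (11%) against 25.1% of all genes. The count was 2 without T1 (2.44% of members against 10.2% of all genes in that fit). It was 3 without T2 or V4 (3.66% against 11.2% and 13.3%). When copies were added to their members the count was 4 (Rpl22l1, Rps14 and Rps25 higher, Rps26 lower), or 4.82% against 19.5% of all genes.

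Between HFpEF-TYA-018 and Control-Veh, Rps26 was lower and no member was called higher with edgeR, where 2.74% of all genes were lower and 3.12% higher. At an unadjusted p under 0.05, 4 members were higher and 8 lower. DESeq2 called Rps14 higher and Rps26, Rpl35 and Rps24 lower, which was 4.88% of members against 10.6% of all genes. On log2(TPM + 1) limma called Rps26 alone (1.22% of members against 0.0628% of all genes). Groups did not overlap for 4 members (4.88%) against 14.8% of all genes. The median log2 fold change of counts was -0.05, but 0.14 on the log2(TPM + 1) scale and 0.04 without C2. Without C1, 5 members were lower, which was 6.1% of members against 5.58% of all genes called in that fit. Rps14 was also called without T3 or T4, where 2.44% of members were called against 3.11% and 3.64% of all genes. All 3 comparisons share groups, so their values are given side by side and are not independent.

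The TPM scale moved all genes and not only ribosomal ones. On log2(TPM + 1) the median change over all genes was -0.07, 0.17 and 0.08 in the 3 comparisons, and the members' median lay -0.19, 0.21 and 0.06 from it. These distances were -0.10, 0.05 and -0.04 on log2(TPM + 0.1), and -0.07, 0.06 and -0.01 with mitochondrially encoded genes taken out of the TPM total. In HFpEF-TYA-018 against HFpEF-Veh, limma on that scale called 10 members higher (among them Rpl22l1, Rpl3l, Rpl7l1, Rps25 and Rps7) and Rps26 lower. These 11 were 13.4% of members, where 16% of all genes were called on that scale. Without mitochondrially encoded genes in the total, 5 members were higher and 2 lower (8.54% against 5.01% of all genes).

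**Figure D2:**
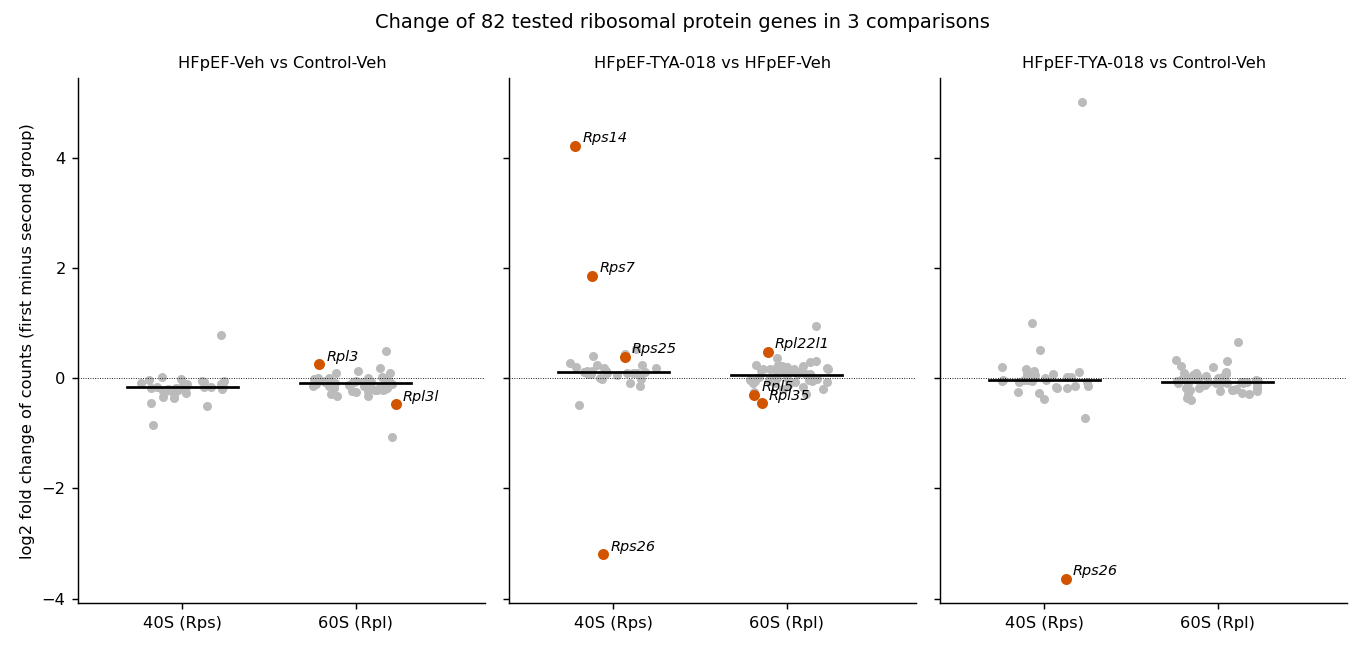
Log2 fold change of counts for the 82 tested members in each comparison, split into 40S (32 genes) and 60S (50 genes); orange points have an adjusted p under 0.05 and black lines are medians. Most points lie within 0.5 of 0, and Rps26, Rps7 and Rps14 stand far from the rest in the comparisons with TYA-018.

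Members of both subunits were called, and a difference between the subunits was not tested. The median log2 fold change of the 32 tested 40S genes was -0.17, 0.11 and -0.04 in the 3 comparisons, and that of the 50 tested 60S genes was -0.10, 0.06 and -0.07. Of the called members, 4 were 40S genes and 5 were 60S genes over all comparisons. Over all genes, edgeR called 21.2%, 19.3% and 5.86% in the 3 comparisons. In HFpEF-Veh against Control-Veh, edgeR, DESeq2 and limma called 0 of the 40S genes, against 21.2%, 26.2% and 1.2% of all genes. At an unadjusted p under 0.05, 3 of the 40S genes were lower with edgeR.

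The spread between libraries of a group was shared by most members. In C1, 74 of the 82 members lay below their own 12-library mean of log2(CPM + 0.5), with a median of -0.19, while in C2 75 members lay above it, with a median of 0.33. Both are vehicle-treated controls, and no HFpEF-Veh or HFpEF-TYA-018 library exceeded this range. V2 and T1 were also high (73 and 66 members above their mean), while V3 was low (74 members below). The median of all tested genes lay between -0.004 and 0.009 in every library, which the scaling by TMM and the centring bring about. The median SD within groups was 0.19 for members and 0.16 for all tested genes, and 5 members exceeded 0.5 (Rps14, Rpl8, Rps7, Rps26 and Rpl18).

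**Figure D3:**
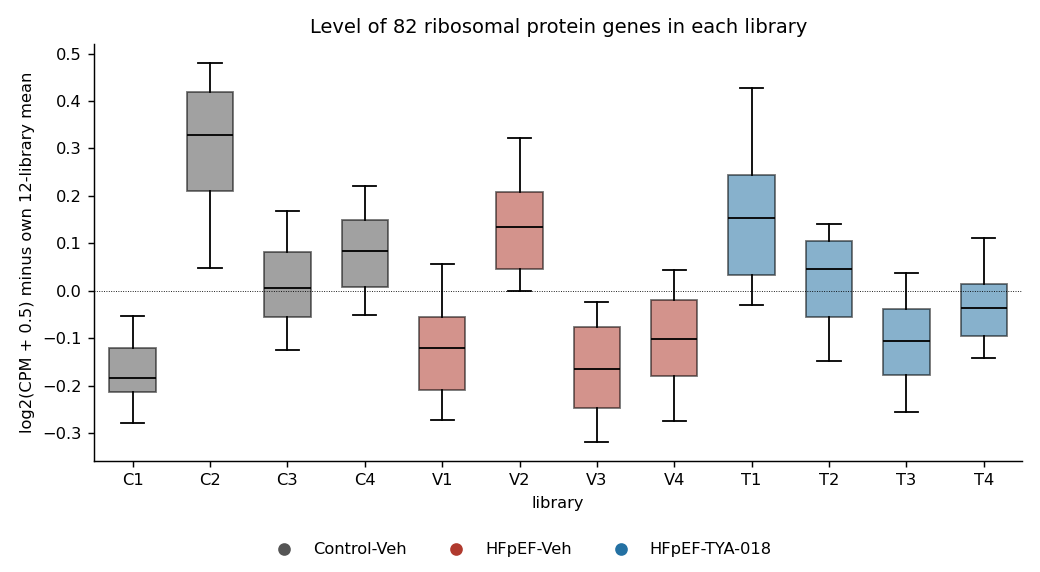
Log2(CPM + 0.5) of the 82 tested members minus each gene's 12-library mean; boxes are quartiles with the median, whiskers run from the 10th to the 90th percentile, and colours mark the group. C2 lies highest (median 0.33) and C1 lowest (-0.19), and both are Control-Veh.

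As a share of all counts, the 86 members made up 1.11 ± 0.113% in the controls, 0.955 ± 0.0927% in HFpEF-Veh mice and 1.09 ± 0.137% in mice given TYA-018 (SD, n = 4). The groups overlapped, with 0.999 to 1.26%, 0.873 to 1.09% and 0.991 to 1.29%. With mitochondrially encoded genes left out of the total, the shares were 1.82 ± 0.139%, 1.74 ± 0.121% and 1.79 ± 0.144%, so the means lay closer together than the SD of any group.

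Rpl3 and Rpl3l were the members called in the disease model, in opposite directions. Rpl3 encodes a 60S core protein close to the peptidyl transferase centre, and Rpl3l its striated muscle paralog. Rpl3 (chromosome 15, 80077791 to 80091868, minus strand, GRCm38) measured 109, 114, 109 and 109 CPM in Control-Veh, 118, 148, 135 and 123 for HFpEF-Veh, and 120, 108, 109 and 117 with TYA-018. Every HFpEF-Veh library lay above every control library, and HFpEF-TYA-018 overlapped both groups. The rise in HFpEF-Veh was 0.25 on the log2 scale of counts (SE 0.07, adjusted p = 0.0303 by edgeR), and it missed the threshold without C3, C4, V2 or V3 (adjusted p 0.0692 to 0.0757). It also missed it with effective lengths as an offset (0.31, edgeR adjusted p = 0.09), with only those groups in the fit (edgeR adjusted p = 0.0562) and on log2(TPM + 1), where the change was 0.08 (limma adjusted p = 0.828). Between HFpEF-TYA-018 and HFpEF-Veh the log2 difference was -0.21 (SE 0.07, edgeR adjusted p = 0.0653, and 0.0391 without V1), with an adjusted p of 0.0262 by DESeq2. On log2(TPM + 1) this direction turned (0.27, limma adjusted p = 0.283).

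Rpl3l (chromosome 17, 24727820 to 24736143, plus strand, GRCm38) measured 168, 215, 193 and 201 CPM in the controls, 154, 135, 133 and 137 in HFpEF-Veh mice, and 181, 171, 145 and 160 in mice given TYA-018. All 4 HFpEF-Veh libraries lay below all 4 controls, and the means ran from 194 ± 19.7 to 140 ± 9.54 and 164 ± 15.5 CPM (SD, n = 4). The log2 change of counts in HFpEF-Veh was -0.47 (SE 0.09, edgeR adjusted p = 0.004), and it held without each library in turn (adjusted p 0.00141 to 0.0153). Against HFpEF-Veh, the HFpEF-TYA-018 value differed by 0.23 (SE 0.09, edgeR adjusted p = 0.0898), and against Control-Veh by -0.24 (adjusted p = 0.132). With effective lengths as an offset the change in HFpEF-Veh was -0.35 (edgeR adjusted p = 0.117), and on log2(TPM + 1) it was -0.57 (limma adjusted p = 0.0647). The difference between HFpEF-TYA-018 and HFpEF-Veh was -0.01 with that offset (edgeR adjusted p = 0.98) and 0.42 on log2(TPM + 1) (limma adjusted p = 0.0493).

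Markers of heart muscle moved beside Rpl3l. In HFpEF-Veh against Control-Veh the log2 change of counts was -0.49 for Tnnt2 (edgeR adjusted p = 0.00114), -0.55 for Tnni3 (adjusted p = 0.00568) and -0.57 for Myl2 (adjusted p = 0.0129), near the size of the fall of Rpl3l. It was -0.79 for Myl3 (adjusted p = 0.0151) and -0.84 for Myh6 (adjusted p = 0.00528), whereas Actc1 rose by 0.32 (adjusted p = 0.0391, all by edgeR). With TYA-018 against HFpEF-Veh, edgeR called Myh6 (0.90) and Myl3 (0.60) higher, and the log2 difference of the other 4 was 0.05 to 0.20. The part of these changes in the values of Rpl3l was not tested.

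The ratio of Rpl3l to Rpl3 cancels the scaling of a library, but not its mix of cells. The part of the muscle, endothelial, fibroblast and red cell marker differences in this ratio was not tested. Counts of Rpl3l per count of Rpl3 were 1.54, 1.89, 1.77 and 1.84 in Control-Veh, 1.31, 0.912, 0.992 and 1.11 for HFpEF-Veh, and 1.51, 1.58, 1.33 and 1.37 with TYA-018. Every HFpEF-Veh library was below every library of both other groups. The log2 ratio differed by -0.71 between HFpEF-Veh and Control-Veh (two-sided exact permutation p = 0.0286, the smallest that 4 against 4 allows, adjusted p = 0.0429 over 3 tests). Both genes already separated these groups in opposite directions, so this p was fixed by those values and adds no separate support. The log2 ratio was 0.43 higher in HFpEF-TYA-018 than in HFpEF-Veh (exact p = 0.0286, adjusted p = 0.0429), and -0.28 relative to Control-Veh (exact p = 0.0571). On deposited TPM the ratio was 2.94 to 3.03 in the controls, 1.49 to 2.28 in HFpEF-Veh mice and 1.77 to 2.56 in mice given TYA-018, so the diseased groups overlapped (difference 0.15, exact permutation p = 0.457) and both lay below control. The mean effective length of Rpl3 was 1067, 1085 and 957 bases in the 3 groups and that of Rpl3l 627, 617 and 662, and the scales differ by these lengths.

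**Figure D4:**
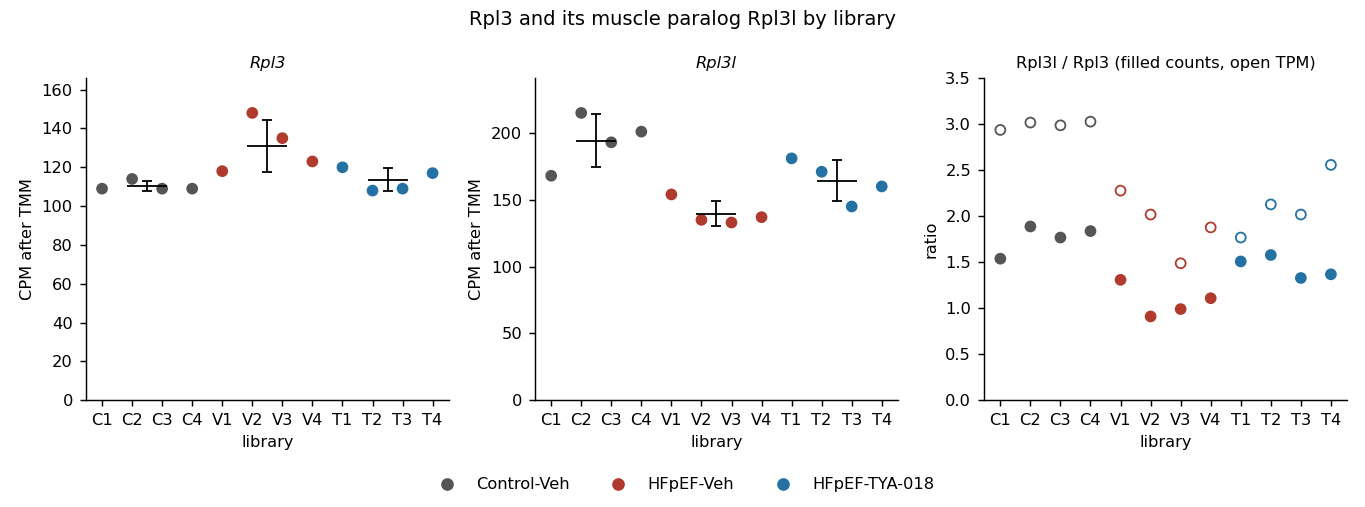
CPM of Rpl3 and Rpl3l in each library with group mean and SD, and the Rpl3l to Rpl3 ratio in counts (filled) and TPM (open). HFpEF-Veh has the highest mean for Rpl3 and the lowest ratios of counts (0.912 to 1.31), whereas in TPM the HFpEF-TYA-018 ratios overlap those of HFpEF-Veh.

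Rps26 showed the most marked fall of the family. RPS26 is a 40S protein at the mRNA exit channel, and the gene lies on chromosome 10 (128624534 to 128626747, minus strand, GRCm38). It measured 99.8, 162, 132 and 133 CPM in Control-Veh, 123, 133, 96.2 and 33.5 for HFpEF-Veh, and 7.85, 6.89, 17.5 and 9.79 with TYA-018. Every HFpEF-TYA-018 library lay below every library of the other groups, and V4 lay between them. The log2 change in HFpEF-TYA-018 was -3.20 against HFpEF-Veh (SE 0.41, edgeR adjusted p = 0.001) and -3.65 against Control-Veh (SE 0.42, edgeR adjusted p = 0.0012). Both calls held without each library in turn and under every alternative scaling and test. HFpEF-Veh and Control-Veh differed by -0.45 (SE 0.37, edgeR adjusted p = 0.416).

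The effective length of Rps26 moved with this level. It was 251 bases in all controls and in V1 and V2, 252 in V3 and 258 in V4, and 272, 266, 258 and 272 bases in T1 to T4. The longest was 1.09 times the shortest. The fall remained with the lengths as an offset, but an offset this small could not remove a change of that size. The cause of the shift in length was not tested. The library V4, with an intermediate level (33.5 CPM), had the same length of 258 bases as T3 (17.5 CPM).

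Copies of Rps26 in the table did not take up the missing counts. Rps26-ps1, a transcribed pseudogene on chromosome 8, differs from Rps26 at 2 of 345 coding bases (C30T and G270A, counted from the first base of the start codon, with the base of Rps26 first). Bases 10 to 50 are shown with the first difference in capitals, because within the coding bases only reads over these 2 positions can tell the sequences apart. The ends outside the coding bases were not compared.
Rps26: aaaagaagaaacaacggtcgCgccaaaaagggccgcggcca
Rps26-ps1: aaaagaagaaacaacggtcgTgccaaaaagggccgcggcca
Rps26-ps1 stood at 0.402 ± 0.177 CPM in the controls, 0.308 ± 0.108 in HFpEF-Veh mice and 0.427 ± 0.221 in mice given TYA-018 (SD, n = 4), so the pseudogene stayed far below the gene. Rps26 held 99.4% of the counts of its family, and with the 2 listed copies added the log2 change against HFpEF-Veh was -3.13 (edgeR adjusted p = 0.000894). Copies of Rps26 that are not among the listed genes were not analysed here.

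Rps7 rose with TYA-018 by itself but not together with its copy. RPS7 is a 40S protein that also binds the ubiquitin ligase MDM2, and the gene lies on chromosome 12 (28630854 to 28635953, minus strand, GRCm38). Rps7 measured 6.94, 1.56, 7.44 and 6.24 CPM in Control-Veh, 2.65, 4.01, 2.78 and 2.85 for HFpEF-Veh, and 20.5, 7.52, 7.31 and 8.98 with TYA-018. All HFpEF-TYA-018 libraries lay above all HFpEF-Veh libraries, and T1 was far above the others. The log2 change against HFpEF-Veh was 1.86 (SE 0.45, edgeR adjusted p = 0.0146), and without each library in turn the adjusted p was 0.0188 to 0.0484. Between HFpEF-Veh and Control-Veh the log2 difference was -0.85 (SE 0.44, edgeR adjusted p = 0.187, and 0.0375 without C2).

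Most counts of the Rps7 family were assigned to a copy. Gm6472, a transcribed pseudogene on chromosome X (152909505 to 152910155, minus strand), differs from Rps7 at 3 of 582 coding bases (T26G, G48A and G123T, counted as above with the base of Rps7 first). Bases 6 to 46 are shown with the first difference in capitals, since the identity of the sequences bears on every value of Rps7.
Rps7: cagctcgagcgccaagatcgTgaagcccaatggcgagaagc
Gm6472: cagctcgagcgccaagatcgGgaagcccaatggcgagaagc
Gm6472 measured 102 ± 14.4 CPM in the controls, 103 ± 13.3 in HFpEF-Veh mice and 97.8 ± 9.53 in mice given TYA-018, against 5.54 ± 2.70, 3.07 ± 0.631 and 11.1 ± 6.34 for Rps7 (SD, n = 4). With all 4 copies added, the sums were 108 ± 12.2, 107 ± 13.4 and 109 ± 14.0 CPM, and the log2 change against HFpEF-Veh was 0.04 (edgeR adjusted p = 0.862). The effective length of Rps7 ran from 774 bases in T1 to 1277 in V2, and its mean of 967 exceeded the longest coding transcript of GENCODE M21 (954 bases).

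**Figure D5:**
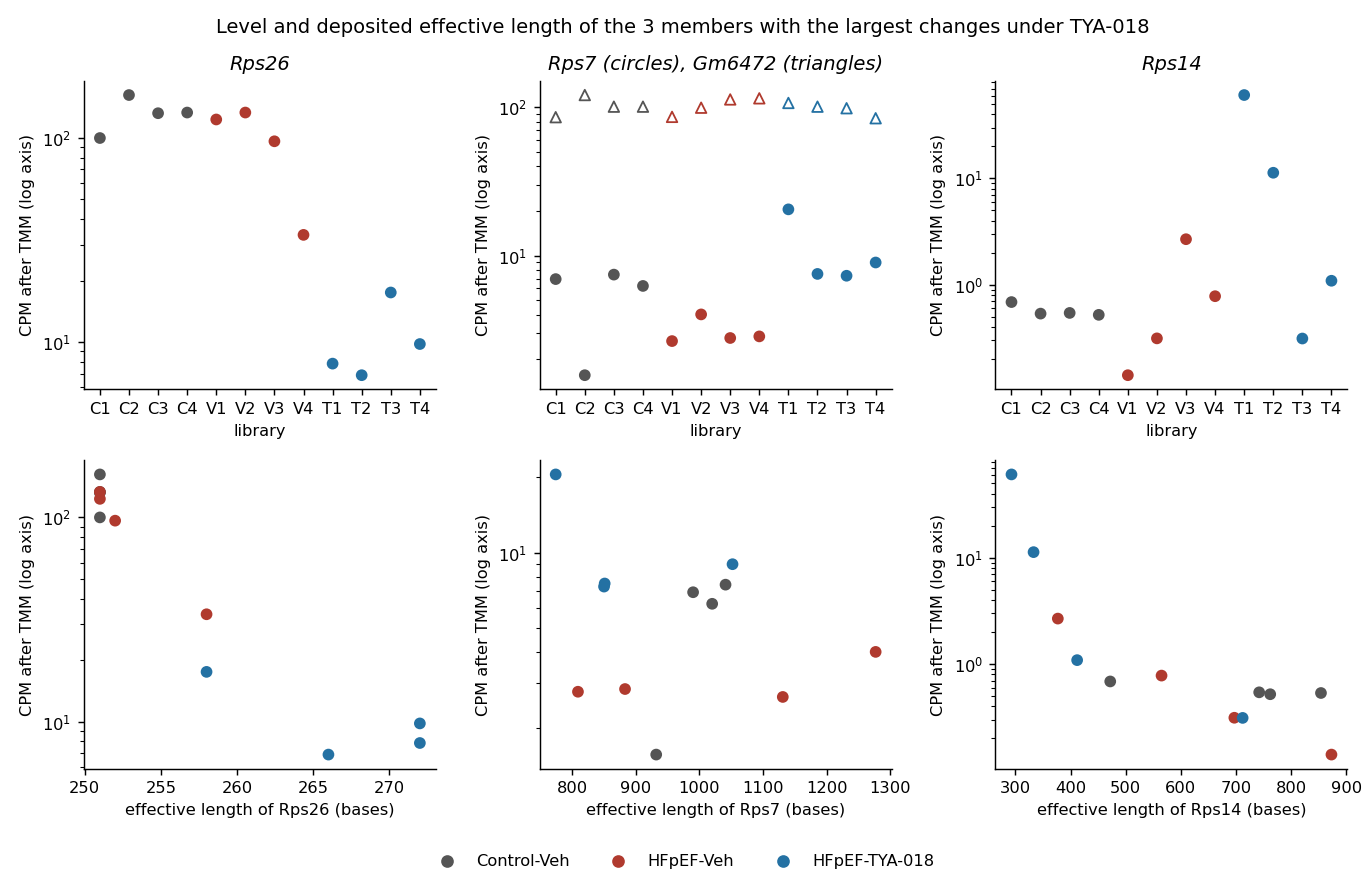
Top, CPM on a log axis by library for Rps26, Rps7 (with its copy Gm6472 as triangles) and Rps14; bottom, CPM of the same genes against the deposited effective length in bases. Rps26 is lowest where its length exceeds 258 bases, Rps14 is highest where its length is shortest (293 bases in T1), and Gm6472 stays between 84.4 and 121 CPM while Rps7 varies.

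Rps14 was called in HFpEF-TYA-018 on the strength of a pair of libraries. RPS14 is a 40S protein whose human gene is lost in the 5q- syndrome, and the gene is near absent here in most libraries. It measured 0.687, 0.535, 0.543 and 0.521 CPM in Control-Veh, 0.141, 0.313, 2.68 and 0.780 for HFpEF-Veh, and 60.8, 11.3, 0.312 and 1.09 with TYA-018. T1 and T2 lay above all HFpEF-Veh libraries, and T3 and T4 lay among them. The log2 change against HFpEF-Veh was 4.21 (SE 1.31, edgeR adjusted p = 0.0417) and ran from 2.10 (without T1) to 5.48 (without V3), and the call was lost without V1, V2, V4, T1 or T2 (adjusted p 0.0665 to 0.229), with the length offset, in TPM and with only those groups in the fit. Effective length fell as low as 293 bases in T1 and 333 in T2 and reached 873 in V1, a ratio of 2.98.

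Rpl15 and Rpl8 were the other members with the most variable effective length. RPL15 is a 60S core protein, and the length of its gene ran from 447 to 1881 bases between libraries (a ratio of 4.21), shortest in C1, V2, V3 and T3 (447 to 459) and 972 or more elsewhere. Its CPM was 67.3 to 73.3 in T2 to T4 and 108 in T1, where its copy Rpl15-ps3 was listed at 0 CPM against 70.3 to 94.0 in every other library. With all its copies added, Rpl15 measured 147 ± 13.7, 148 ± 12.1 and 152 ± 5.64 CPM in the 3 groups (SD, n = 4). Rpl8, another 60S core protein, ran from 1557 to 3261 bases, beyond its longest GENCODE M21 transcript of 1020 bases, with 0.203 to 5.59 CPM over the libraries and no call in any comparison with edgeR, DESeq2 or limma.

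Rpl22l1 and Rps25 rose by smaller steps. Rpl22l1 encodes a paralog of the 60S protein RPL22 (chromosome 3, 28805436 to 28807424, GRCm38) and measured 7.71, 9.83, 8.73 and 7.51 CPM in the controls, 5.96, 8.04, 6.69 and 7.50 in HFpEF-Veh mice, and 11.2, 9.78, 9.04 and 9.24 in mice given TYA-018. All HFpEF-TYA-018 libraries exceeded all HFpEF-Veh libraries, with a log2 change of 0.48 (SE 0.12, edgeR adjusted p = 0.0152). The call was lost without T1 (adjusted p = 0.0521) and with the length offset (adjusted p = 0.122). Its partner Rpl22 changed by 0.14 in the same comparison (SE 0.08, edgeR adjusted p = 0.205).

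Rps25, a 40S protein gene needed for initiation at some viral internal entry sites, measured 24.9, 30.6, 24.3 and 25.6 CPM in Control-Veh, 19.4, 25.3, 23.5 and 22.8 for HFpEF-Veh, and 30.6, 28.2, 25 and 34.7 with TYA-018. T3 lay below V2, so the groups overlapped. The log2 change against HFpEF-Veh was 0.38 (SE 0.11, edgeR adjusted p = 0.033), and it missed the threshold without V1, V3, V4, T1, T2 or T4 (adjusted p 0.0574 to 0.0849).

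Rpl35 and Rpl5 fell in HFpEF-TYA-018, and neither call remained once copies were added. RPL35 sits near the exit of the 60S peptide tunnel. Rpl35 measured 92.7, 148, 131 and 122 CPM in the controls, 122, 147, 123 and 136 in HFpEF-Veh mice, and 86.4, 95.3, 92.7 and 111 in mice given TYA-018. The libraries with TYA-018 lay below all of HFpEF-Veh but overlapped the controls through C1, and the log2 change was -0.46 (SE 0.13, edgeR adjusted p = 0.0282). Its copy Gm2000 moved the other way, with 1.72 ± 1.29 CPM in HFpEF-Veh mice and 22.6 ± 16.3 in mice given TYA-018 (SD, n = 4), and the sum of family members changed by -0.17 (edgeR adjusted p = 0.362). Without V2, V4, T1, T2 or T3 the call of Rpl35 was lost (adjusted p 0.0621 to 0.0851). Against Control-Veh its log2 difference was -0.36 (SE 0.13, edgeR adjusted p = 0.122, and 0.0242 without C1).

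RPL5 joins RPL11 and 5S ribosomal RNA in a particle that can bind MDM2. Rpl5 measured 49.2, 41.7, 50.2 and 46.8 CPM in Control-Veh, 61.9, 46.6, 45.8 and 46.8 for HFpEF-Veh, and 41.5, 38.2, 39.9 and 42.6 with TYA-018. The log2 change against HFpEF-Veh was -0.31 (SE 0.10, edgeR adjusted p = 0.0417), with V1 above the rest of its group. It held only without V3, and without V1, V2, V4, T1, T2, T3 or T4 the adjusted p was 0.0505 to 0.111. Its copy Gm15500 carried 189 ± 26.9, 172 ± 17.2 and 165 ± 14.2 CPM in the 3 groups, and with its copies added Rpl5 changed by -0.11 (edgeR adjusted p = 0.359).

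The other paralog pairs gave values without a call. Rps27 and Rps27l encode 40S proteins of the same fold. Rps27 measured 33.4 ± 6.77 CPM in the controls, 25.9 ± 6.27 in HFpEF-Veh mice and 27.8 ± 4.74 in mice given TYA-018, and it passed the threshold in HFpEF-Veh against Control-Veh without V2 (edgeR adjusted p = 0.0449). Rps27l measured 21.6 ± 3.02, 21.9 ± 2.44 and 23.3 ± 0.505 CPM. The 60S pair Rpl36a and Rpl36al stood at 63.7 ± 12, 54.9 ± 5.74 and 56.5 ± 4.05 CPM and at 41.6 ± 4.98, 40.6 ± 2.80 and 39.1 ± 2.91 CPM. Rpl7 stood at 239 ± 28.2, 228 ± 12.5 and 233 ± 18.5 CPM, and Rpl7l1, which is linked to ribosome assembly, at 20.4 ± 1.6, 19.3 ± 1.27 and 21.8 ± 0.294 CPM (SD, n = 4). The HFpEF-TYA-018 libraries of Rpl7l1 lay above those of HFpEF-Veh (log2 change 0.17, edgeR adjusted p = 0.0892). With lengths as an offset Rpl7l1 was called higher (0.37, edgeR adjusted p = 0.0252) and Rpl7 lower (-0.31, edgeR adjusted p = 0.0304), where Rpl7 without it had changed by 0.03.

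The acidic stalk, which recruits elongation factors to the 60S subunit, is made of RPLP0 and dimers of RPLP1 and RPLP2. Rplp0 measured 392 ± 39.6 CPM in Control-Veh, 378 ± 28.0 for HFpEF-Veh and 423 ± 25.9 with TYA-018, Rplp1 307 ± 62.9, 290 ± 39.5 and 306 ± 8.17, and Rplp2 154 ± 20.8, 137 ± 12 and 159 ± 16.3 (SD, n = 4). None of the 3 was called in any comparison by edgeR, DESeq2 or limma on log2(TPM + 1), and 0 had an unadjusted p under 0.05 with edgeR. Rpsa, the 40S protein also described as a laminin receptor, measured 3.23 ± 0.464, 3.15 ± 0.666 and 4.55 ± 1.58 CPM, with 6.92 in T1 and 3.67 to 3.85 in T2 to T4. Its log2 change in HFpEF-TYA-018 was 0.54 against HFpEF-Veh (edgeR adjusted p = 0.108). Its effective length was 3131 to 3758 bases, longer than its longest GENCODE M21 transcript of 1938 bases.

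Ribosomal proteins with other symbols were read beside the family. Fau, which encodes the 40S protein RPS30 fused to a ubiquitin-like protein, measured 118 ± 21, 106 ± 15.9 and 109 ± 8.28 CPM. Rack1, a 40S scaffold listed as Gnb2l1, measured 187 ± 23.4, 181 ± 10.3 and 203 ± 16.5 CPM. Neither gene was called with edgeR on counts or with DESeq2 in any comparison (0 had an unadjusted p under 0.05 with edgeR). In HFpEF-TYA-018 against HFpEF-Veh, Gnb2l1 was called higher by edgeR with effective lengths as an offset (0.62, adjusted p = 0.0286) and by limma on log2(TPM + 1) (1.05, adjusted p = 0.0257).

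A list of other mRNAs with a known TOP start was examined in the same way. Of 20 tested, HFpEF-Veh had 2 higher and 1 lower relative to Control-Veh with edgeR, where 10.9% of all genes were higher and 10.3% lower, and the median log2 fold change was -0.03. On log2(TPM + 1) limma called 0 of them there (DESeq2 called 4). Pabpc1, the poly(A) binding protein, measured 84 ± 5.27 CPM in Control-Veh, 136 ± 11.8 for HFpEF-Veh and 84.2 ± 7.74 with TYA-018 (SD, n = 4). It rose in HFpEF-Veh by 0.69 (SE 0.08, edgeR adjusted p = 0.000512) and was lower in HFpEF-TYA-018 than in HFpEF-Veh (log2 change -0.69, edgeR adjusted p = 0.00068). In deposited TPM, Pabpc1 stood at 24.0 ± 1.69, 28.2 ± 9.01 and 32.7 ± 6.76 in the 3 groups, and on log2(TPM + 1) the changes were 0.16 and 0.25 (limma adjusted p = 0.707 and 0.405), so the direction with TYA-018 turned. Eef1a1, an elongation factor, showed the same directions (0.34 and -0.45, edgeR adjusted p = 0.0189 and 0.00607), and Naca, part of the nascent chain complex at the ribosome, was lower in HFpEF-Veh (-0.20, edgeR adjusted p = 0.0377). Eif3m, a subunit of an initiation factor, was higher under TYA-018 relative to Control-Veh (0.36, edgeR adjusted p = 0.0143). With effective lengths as an offset the calls of Eef1a1 held and those of Pabpc1, Naca and Eif3m did not, and on log2(TPM + 1) limma called none of these 4 in those comparisons. In HFpEF-Veh against Control-Veh, 78 of the 82 ribosomal protein genes had a log2 fold change within 0.5 of 0. Of these 20 mRNAs 19 did too, so the lists did not differ in this respect.

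Genes of ribosome assembly, such as RNA polymerase I subunits and nucleolar processing factors, were listed for all 41 and tested for all 41. In HFpEF-Veh against Control-Veh 3 were lower and 0 higher with edgeR (10 lower and 2 higher at an unadjusted p under 0.05, 5 called by DESeq2 and 0 by limma), with a median log2 fold change of -0.09. That is 3 of 41 lower, where 10.3% of all genes were lower and 10.9% higher. Over all genes, DESeq2 called 26.2% in this comparison and limma on log2(TPM + 1) called 1.2%. Gnl2, a nucleolar GTPase, stood at 29.5 ± 2.59 against 22.7 ± 0.694 CPM (-0.38, edgeR adjusted p = 0.00273), Mybbp1a at 46.5 ± 3.11 against 36.2 ± 2.01 (-0.36, edgeR adjusted p = 0.00355), and Polr1b, a core subunit of RNA polymerase I, at 7.52 ± 0.591 against 5.64 ± 0.970 (-0.42, edgeR adjusted p = 0.0216). The call of Gnl2 held with effective lengths as an offset (edgeR adjusted p = 0.0191). Those of Mybbp1a and Polr1b did not (edgeR adjusted p = 0.493 and 0.0795). In HFpEF-TYA-018 against HFpEF-Veh 3 were higher and 0 lower (8 and 1 at an unadjusted p under 0.05, 3 called by DESeq2 and 9 by limma), with a median of 0.10, where 8.93% of all genes were higher and 10.4% lower. Those were Tsr1 (0.35, edgeR adjusted p = 0.0388), Nob1 (0.31, adjusted p = 0.0278) and Rrp9 (0.28, adjusted p = 0.0345), which act in maturation of the small subunit and its RNA. All 3 calls were lost with effective lengths as an offset (edgeR adjusted p = 0.27, 0.571 and 0.214). On log2(TPM + 1) limma called Rrp9 (adjusted p = 0.0383) but not Tsr1 or Nob1 (adjusted p = 0.138 and 0.0838). DESeq2 called 23.8% of all genes between HFpEF-TYA-018 and HFpEF-Veh, and limma 16%. Against Control-Veh, HFpEF-TYA-018 had 0 called with edgeR (9 at an unadjusted p under 0.05, 4 called by DESeq2 and 0 by limma). There edgeR called 5.86% of all genes, DESeq2 10.6% and limma 0.0628%. Shares of all genes at an unadjusted p under 0.05 are not given.

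The deposited effective lengths were steadier for ribosomal protein genes than for genes at large. The ratio of the longest to the shortest length over 12 libraries had a median of 1.17 for the 82 members and 1.43 for all tested genes. It stayed under 1.1 for 29 members, Rps26 and Rps27l among them, and exceeded 1.5 for 15. For 6 of the 81 members with a coding transcript in GENCODE M21 (Rpl7l1, Rpl8, Rps23, Rps3, Rps7 and Rpsa), the mean effective length was longer than the longest such transcript. Across the 82 members, Pearson's r between the log2 ratio of group mean lengths and the log2 fold change of counts was -0.28, -0.42 and -0.52 in the 3 comparisons (Spearman -0.17, -0.22 and -0.28), and without Rps26, Rps7 and Rps14 it was -0.22, -0.40 and -0.29 (79 genes). These correlations are across genes of the same libraries, which are not independent replicates, and both quantities come from the same assignment of reads.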

How the data were processed

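The 3 deposited tables were read, with 12 libraries in each and 0 columns left out. Per the study's methods, the authors trimmed reads with fastp, quantified them with Salmon (version 1.6.0 in the submitters' processing notes) against mouse GENCODE transcripts (GRCm38) and summarised genes with tximport; the notes name the build hg38, which is at odds with mouse symbols. The deposited values are estimated counts, not normalised, TPM, and another value, the effective length in bases. The members and gene lists were chosen with earlier results of these data known.

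Counts were rounded, filtered by filterByExpr (14333 genes), scaled by TMM and tested in one edgeR 4.0.16 quasi-likelihood fit of 12 libraries in R 4.3.3, with Benjamini-Hochberg adjustment over all tested genes and a threshold of 0.05. DESeq2 1.42.0 and limma 3.58.1 were alternatives. The main edgeR fit was tested on simulated counts, and the alternatives and the other steps were not. Genes were named by rule: the 5 largest rises and falls among called members per comparison, a fixed list of outliers, paralogs and stalk genes, and the 3 members with the most variable effective length; some genes are not reported here. Genes of the other lists, libraries that stood apart and copies were named after their values were seen. Copies were found with blastn 2.17.0 against GENCODE M21 transcripts. Total counts were 61.2 to 83.9 M per library. No batch was labelled, and animal numbers run together within groups. The edgeR p-values rest on the spread between mice pooled over the 3 groups (9 residual degrees of freedom) and moderated across genes. The exact permutation p-values rest on 4 mice against 4.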

Additional observations from a re-analysis of the deposited data

Results flagged for a closer look

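Of 78 groups of 4 libraries examined, 8 held a library whose gap to its nearest neighbour exceeded Dixon's critical share of the group's range, and chance alone gives about 1 in 20. T1 was such a library for Rpl15 (108 CPM, others 67.3 to 73.3), Rps7 (20.5, others 7.31 to 8.98) and Rpsa (6.92, others 3.67 to 3.85). T3 was low for Rpl7l1 (21.3, others 21.8 to 21.9), by a small amount. In HFpEF-Veh, V1 was high for Rpl5 (61.9, others 45.8 to 46.8) and V2 for Rps7 (4.01, others 2.65 to 2.85). In Control-Veh, C2 was high for Rpl3 (114, others 109) and C1 for Rps14 (0.687, others 0.521 to 0.543). T1 also held the largest total count (83.9 M), and its part in these values was not tested.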

How the results depend on the processing

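No paired analysis was possible because the groups share none of their animal numbers. In HFpEF-Veh against Control-Veh the count of 2 called members was 0 with the length offset and with limma on log2(TPM + 1), with or without mitochondrial genes, 1 on log2(TPM + 0.1) and 1 with only those groups in the fit. In HFpEF-TYA-018 against HFpEF-Veh the count of 7 was 11 on both TPM scales (medians 0.38 and 0.40). Those were 13.4% of members, against 16% and 18.3% of all genes. The count was 4 with copies by sequence added (4.82% against 19.5%), an alternative chosen after seeing the data. Against Control-Veh the count of 1 was 4 with the DESeq2 test (4.88% of members against 10.6% of all genes), and the median was 0.14 on both TPM scales. Leaving out single libraries gave 1 to 12, 2 to 6 and 1 to 5 called members and medians of -0.22 to -0.05, 0.04 to 0.17 and -0.12 to 0.04. Shares without mitochondrially encoded genes were 1.82%, 1.74% and 1.79%, and in TPM 1.24%, 1.01% and 1.36%, and without single libraries 1.06 to 1.15%, 0.91 to 0.982% and 1.03 to 1.13%. The log2 ratio of Rpl3l to Rpl3 in TPM was 0.15 (HFpEF-TYA-018 against HFpEF-Veh) and -0.51 (against Control-Veh), and without single libraries -0.81 to -0.63, 0.35 to 0.52 and -0.35 to -0.24. With the length offset Rpl7 turned to -0.31, and the members' median in HFpEF-TYA-018 against HFpEF-Veh turned to -0.05. For single named genes, 1201 values kept their direction and side of the threshold, 94 turned in direction without a call on either side, 54 lost and 18 gained the call, and the cause was not tested. Division of reads among copies and the small number of mice limit these values.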
